A study of Mus musculus with 6 samples.

Results

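The genes described here encode the tumour necrosis factor (TNF) superfamily and the NF-κB pathway. They cover TNF-type ligands, their receptors, the TRAF adaptors that the receptors recruit and proteins induced by TNF. They also cover the NF-κB subunits and the IκB proteins, of which the cytoplasmic ones hold those subunits in check. Members were taken by gene symbol from the array's annotation. The rule uses no difference between the groups, although the pathway itself was picked with earlier results of these data known. Where a gene had more than 1 probe set the one of highest mean signal was used. This gave 57 genes of the 19938 that had a probe set with a single symbol. RNA came from villi of the whole intestine of P5 littermates. Mutant pups (the Trpm7-intestine KO) were of genotype Trpm7 fl/fl;Villin1-Cre and control pups were Trpm7 fl/fl, so both groups carried the floxed allele and the Cre transgene was present in mutants alone. Villin1-Cre acts in the epithelium along the whole intestine and is not directed at the leukocytes and stroma of the villus. The labels give the background as C57BL/6, whereas the study's methods give another strain for the floxed line and C57BL/6J for the Cre line. There were 3 mutant and 3 control replicates, each on 1 array. A legend of the study counts them as littermates of either genotype, and the labels do not say whether a replicate was a single pup.

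TNF and related ligands bind trimeric receptors at the cell surface. The receptors gather TRAF proteins, death-domain adaptors and ubiquitin ligases, and the resulting complex can either activate NF-κB or start cell death. In resting cells NF-κB dimers are bound by IκB proteins such as IκBα, the product of Nfkbia. Once the IκB kinase complex marks IκBα for destruction, the dimers enter the nucleus and switch on target genes, among which are Nfkbia itself and Tnfaip3, whose products shut the pathway down again. In the intestinal epithelium this pathway is known both for guarding enterocytes against death and for driving inflammation.

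In mutant villi the IκB proteins, a group of only 5 genes, had the largest share of rises of any role. The transcripts of 4 of the 5 IκB proteins among the members rose, led by Nfkbia at 2.38-fold, and so did the feedback inhibitor Tnfaip3. The calls of Nfkbid and Tnfaip3 were each lost in 4 of the fits that left out 1 replicate. Bcl3, an IκB protein that is not a member by its symbol, had a difference of -0.29 and was not called. Nor was Nfkbil1, an IκB-like member counted apart from these 5, with a difference of 0.12. The subunit Relb, the receptors Tnfrsf23, Tnfrsf10b and Tnfrsf1b, the adaptor Traf2, the ligand Tnfsf15 and the TNF-induced gene Tnfaip1 rose as well. Tnfrsf11a, the receptor of the RANK ligand, fell. Leaving out 1 replicate removed the call of Tnfsf15 in 4 fits, of Tnfaip1 in 5 and of Tnfrsf11a in 3. A gene was called changed when its adjusted p in limma was 0.05 or less, adjusted by the method of Benjamini and Hochberg across 30177 probe sets. By this rule 12 of the 57 members rose, or 21.1%, and 1 fell, or 1.75%. Over all probe sets 8.04% rose and 8.82% fell, and over genes with a single symbol the shares were 9.39% and 10.1%. The median log2 difference, mutant minus control, was 0.15 over the members and 0.005 over all genes with a single symbol. All 3 mutant arrays lay above all 3 control arrays for 23 members and below them for 2, where 16.9% and 17.6% of all probe sets, or 18.6% and 19% of genes with a single symbol, did so. No filter on low signal was applied, so every member entered the test.

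**Figure D1:**
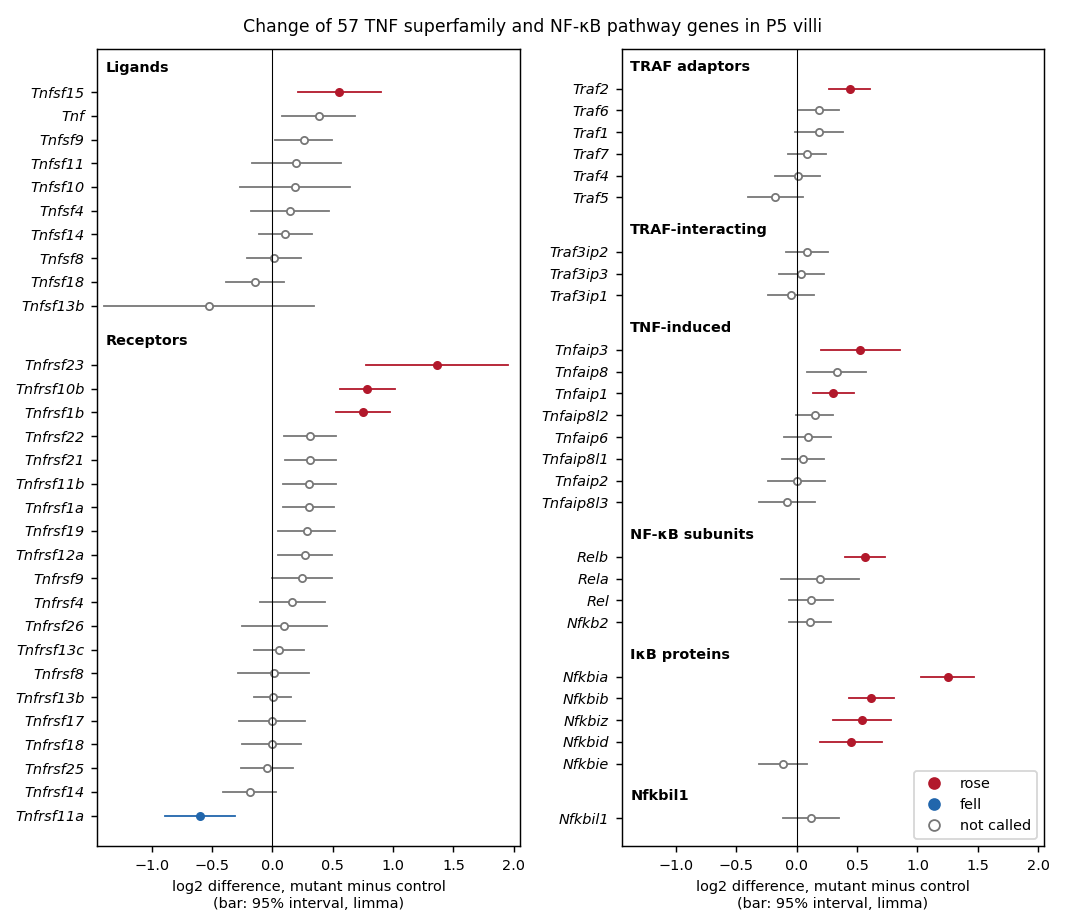
Log2 difference, mutant minus control, of each of the 57 members on the horizontal axis, with its 95% interval from limma as a bar and the members grouped by role (3 arrays per group). Filled red points rose, the filled blue point fell and open points were not called; 4 of the 5 IκB proteins rose, with Nfkbia at 1.25, while 16 of 20 receptors were not called.

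The size of the changes was modest. Among the members, 2 rose at least 2-fold, Tnfrsf23 and Nfkbia, against 1.35% of all probe sets. How many members could be called also depended on their signal, since 23 had a mean below the median signal of 6.27 in both groups. Of these dim members 1 rose and 0 fell by limma, while among the 34 brighter members 11 rose and 1 fell. Among all genes with a single symbol, 2.4% of the dim and 15.2% of the brighter ones rose.

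The arrays matched their labels for the deleted gene. Trpm7 read 8.03, 7.79 and 7.88 on the mutant arrays and 9.11, 8.96 and 9.03 on the control arrays, a log2 difference of -1.13 ± 0.09 (SE) with an adjusted p of 0.00019 in limma. The 8 epithelial markers were among the bright genes in every sample. Sex-linked transcripts differed between replicates of a group. Mutant 1 and control 1 had high Xist and low Y-linked signal, mutants 2 and 3 the opposite, and controls 2 and 3 showed both, with Xist at 9.82 and 9.66 and the Y-linked gene Eif2s3y at 7.71 and 7.84. With these 2 controls averaged into 1 sample, a setting chosen after the data were seen, 9 members rose and 1 fell. With 3 arrays a group an exact permutation test of a single gene cannot go below p = 0.1, so calls rest on the fit over all probe sets.

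Among the ligands 1 of 10 rose, or 10%, near the 9.39% of all genes with a single symbol. Tnfsf15 encodes TL1A, which binds the receptor Tnfrsf25 on lymphocytes. Its log2 signal was 6.99, 6.52 and 6.51 in mutant villi, against 6.31, 6.09 and 5.96 in control villi. The groups did not overlap, and mutant 1 was the highest array. The log2 difference was 0.55 ± 0.15 (SE, n = 3 each; limma, adjusted p = 0.0396). This call was lost without control 2 (adjusted p = 0.108), control 3 (0.126), mutant 1 (0.0773) or mutant 2 (0.0622), and also with arrays centred on their medians (0.0517), an offset of 32 (0.0603) or quantile normalization (0.0568). Its receptor Tnfrsf25 had a difference of -0.04 and was not called.

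Tnf, the founding ligand, had means below the median signal of 6.27 in both groups. Its log2 signal was 5.97, 5.97 and 6.39 in mutant villi and 5.75, 5.59 and 5.84 in control villi. The mutant arrays lay above the controls without overlap, mutant 3 being the highest. The difference of 0.38 had a 95% interval from 0.08 to 0.68 and an adjusted p of 0.0871 in limma, and so was not called. Tnfsf13b, the B cell survival factor BAFF, was the most variable ligand, with 7.20, 7.76 and 6.83 in mutant villi and 6.90, 8.25 and 8.22 in control villi. Control 1 stood more than 1 log2 unit below the other controls, and the groups overlapped. The difference was -0.53 and was not called with all arrays (limma, adjusted p = 0.41), whereas without control 1 it was -0.97 (adjusted p = 0.0443). None of the other 7 ligands passed the test, with differences between -0.14 for Tnfsf18 and 0.26 for Tnfsf9. They include Tnfsf10, the TRAIL ligand, at 0.19, and Tnfsf11, the RANK ligand, at 0.20.

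Of the 20 receptors 3 rose, or 15%, and 1 fell, or 5%, where 9.39% and 10.1% of all genes with a single symbol did so. The receptors for TNF itself are Tnfrsf1a, which carries a death domain and is found on most cells, and Tnfrsf1b, which signals through TRAF proteins and lacks a death domain. Tnfrsf1b had a log2 signal of 7.40, 7.64 and 7.71 in mutant villi and 6.78, 6.81 and 6.91 in control villi. No mutant array came near the controls, the lowest mutant lying 0.49 above the highest control. The log2 difference was 0.75 ± 0.10 (limma, adjusted p = 0.00184), a 1.68-fold rise. Tnfrsf1a had a log2 signal of 11.34, 11.23 and 11.13 in mutant villi and 11.06, 10.85 and 10.89 in control villi. These values did not overlap, but the groups lay close together. Its difference of 0.30 had an interval from 0.09 to 0.51 and just missed the threshold (limma, adjusted p = 0.0595), and it passed under 7 alternatives, among them array weights (0.0261) and the fit without control 1 (0.0413).

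Receptors for TRAIL, a ligand that can kill cells, come in signalling and decoy forms. Tnfrsf10b encodes the mouse death receptor for TRAIL, which triggers caspase activation. Its log2 signal was 7.21, 7.06 and 7.02 in mutant villi and 6.33, 6.15 and 6.45 in control villi. The groups were well separated, and the difference was 0.79 ± 0.10 (limma, adjusted p = 0.0016). Tnfrsf23, a mouse decoy receptor for TRAIL without a death domain, had the largest difference among the members. It read 8.33, 8.68 and 7.53 in mutant villi and 6.91, 6.83 and 6.70 in control villi. The mutant arrays were spread over more than 1 log2 unit, mutant 3 being the lowest, yet all lay above the controls. The difference was 1.37 ± 0.25 or 2.58-fold (limma, adjusted p = 0.00909), and it ranged between 1.12 and 1.69 when 1 replicate was left out.

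Tnfrsf23 neighbours Tnfrsf22 and Tnfrsf26 on chromosome 7 in RefSeq's annotation. Tnfrsf22, the other decoy receptor of this cluster, had 5.72, 5.56 and 5.51 in mutant villi and 5.41, 5.27 and 5.17 in control villi. Its arrays did not overlap, but the difference of 0.31 was not called (limma, adjusted p = 0.057). For Tnfrsf26 the difference was 0.10, also not called. The genes are close paralogs, and whether their probes share sequence was not examined. Other neighbours among the members likewise had unequal values, in differences that were not tested against each other. Tnfsf15 had 0.55 where Tnfsf8 had 0.02, and Tnfrsf1b had 0.75 where Tnfrsf8 had 0.01.

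Tnfrsf11a was the one member that fell. It encodes RANK, the receptor through which RANK ligand drives formation of osteoclasts and, in the gut, of M cells. Its log2 signal was 8.80, 8.87 and 9.12 in mutant villi and 9.32, 9.56 and 9.71 in control villi. The highest mutant lay 0.20 below the lowest control. The log2 difference was -0.60 ± 0.12, or 1.52-fold lower (limma, adjusted p = 0.0144), and the call was lost without control 2 (0.0518), mutant 1 (0.0513) or mutant 2 (0.0577). The decoy receptor of the same ligand, Tnfrsf11b (osteoprotegerin), had a difference of 0.31 and was not called (adjusted p = 0.0634). Tnfrsf14 was the other member whose mutant arrays all lay below the controls, at -0.19, and it was not called. The remaining receptors ranged between -0.04 for Tnfrsf25 and 0.31 for Tnfrsf21. Among them the receptors of BAFF and its relative on B cells stayed close to 0, with Tnfrsf13b at 0.003, Tnfrsf17 at -0.003 and Tnfrsf13c at 0.06.

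**Figure D2:**
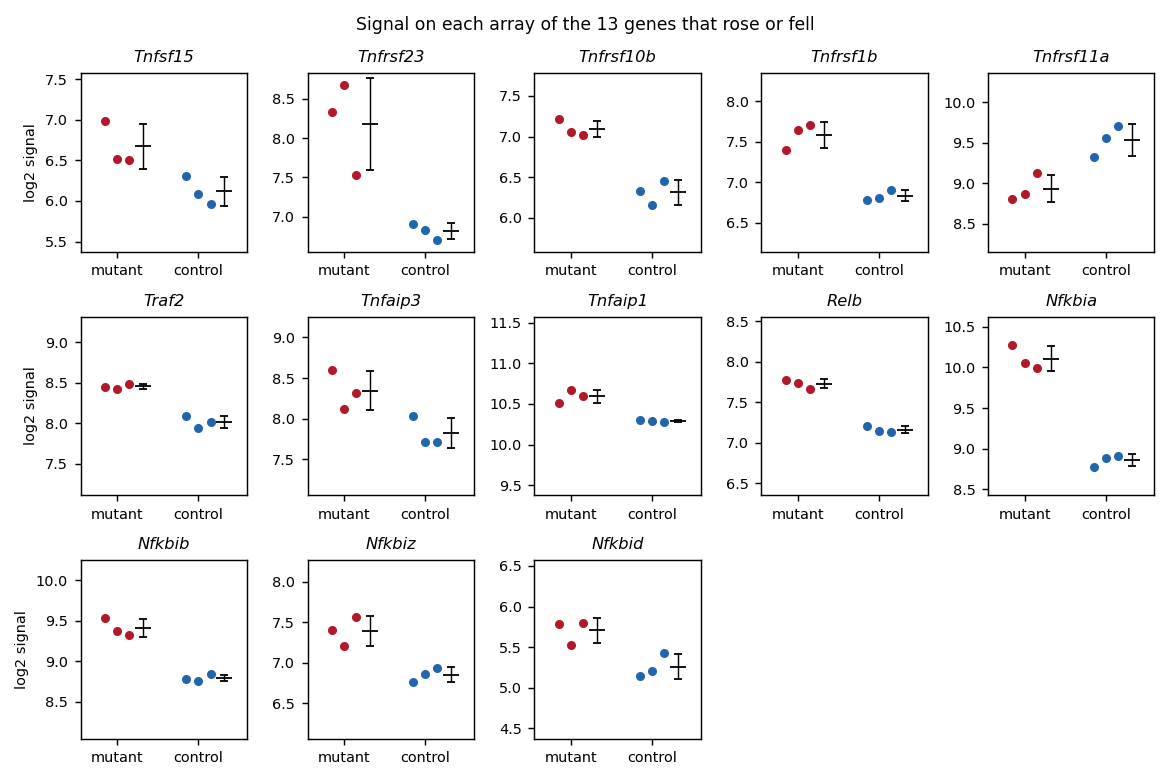
Log2 signal (vertical axis) on each mutant (left, red) and control (right, blue) array for the 13 members that rose or fell, with the group mean and SD beside the points. Axes differ in position and have the same span, except that of Tnfrsf23, which is slightly wider. In each of the 13 panels the groups do not overlap. Nfkbia and Relb show tight groups far apart, while the mutant arrays of Tnfrsf23 are spread.

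TRAF proteins link the receptors to ubiquitin ligases and kinases. Of the 6 TRAF adaptors 1 rose, or 16.7%, where 9.39% of all genes with a single symbol and 15.2% of the brighter ones did so. Traf2, which docks on both TNF receptor complexes and recruits cellular inhibitors of apoptosis, had 8.45, 8.43 and 8.49 in mutant villi and 8.09, 7.94 and 8.02 in control villi. Its arrays agreed closely within each group, and the log2 difference was 0.44 ± 0.07 (limma, adjusted p = 0.0056). Traf6, which serves Toll-like and interleukin-1 receptors, had a difference of 0.19 with no overlap between groups and was not called (adjusted p = 0.123). Differences of the other adaptors lay between -0.18 for Traf5 and 0.18 for Traf1. None of the 3 TRAF-interacting proteins was called, the largest difference being 0.09 for Traf3ip2, an adaptor of interleukin-17 signalling.

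Genes named for their induction by TNF gave 2 rises in 8, or 25%, against 9.39% of all genes with a single symbol and 15.2% of the brighter ones. Tnfaip3 encodes a ubiquitin-editing enzyme that ends NF-κB signalling at the receptor complex. Its log2 signal was 8.60, 8.12 and 8.31 in mutant villi and 8.03, 7.71 and 7.71 in control villi. The lowest mutant exceeded the highest control by 0.09 only. The difference was 0.53 ± 0.14 (limma, adjusted p = 0.0386), and the call was lost without control 2 (0.12), control 3 (0.121), mutant 1 (0.0984) or mutant 3 (0.0794), and with arrays centred on their medians (0.0524) or an offset of 32 (0.0514). Tnfaip1, an adaptor of a cullin ubiquitin ligase, had 10.51, 10.67 and 10.60 in mutant villi and 10.30, 10.29 and 10.28 in control villi. The shift was small beside its bright signal and the controls were almost identical. Its difference was 0.30 ± 0.07 (limma, adjusted p = 0.0262), and without any replicate but mutant 1 the adjusted p lay between 0.0531 and 0.0931. Tnfaip8 had a difference of 0.33 and was not called (adjusted p = 0.0707), and a second probe set of this gene had 0.15. The other 5 lay between -0.08 and 0.15.

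Of the NF-κB subunits 1 of 4 rose, or 25%, against 9.39% of all genes with a single symbol and 15.2% of the brighter ones. Relb, the subunit that partners the processed product of Nfkb2 in the non-canonical pathway, had a log2 signal of 7.78, 7.74 and 7.67 in mutant villi and 7.21, 7.15 and 7.13 in control villi. Each group spanned little more than 0.1, and the groups were far apart by comparison. The difference was 0.57 ± 0.07 (limma, adjusted p = 0.0016). Rela, which carries the main transactivation domain of the canonical pathway, had 9.07, 8.86 and 8.66 in mutant villi and 8.92, 8.58 and 8.51 in control villi. The groups overlapped, and replicate 1 was the highest array in both. Its difference of 0.19 had an interval from -0.13 to 0.52 (limma, adjusted p = 0.415).

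Rel and Nfkb2, the remaining subunits among the members, also overlapped between groups. The subunit gene Nfkb1 was not among the members, so no value is given for it. Rel, a subunit prominent in lymphocytes, had 7.25, 7.20 and 7.38 in mutant villi and 7.14, 7.22 and 7.12 in control villi. Nfkb2, the precursor protein of the non-canonical pathway, had 7.38, 7.48 and 7.45 in mutant villi and 7.36, 7.38 and 7.24 in control villi. Their differences were 0.12 and 0.11, with intervals from -0.07 to 0.30 and from -0.06 to 0.28, and limma gave adjusted p of 0.381 and 0.388.

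**Figure D3:**
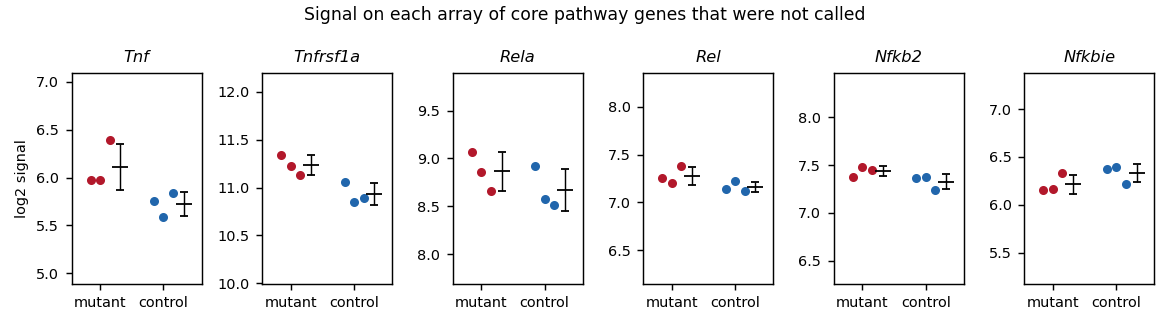
Log2 signal (vertical axis) on each mutant (left, red) and control (right, blue) array for 6 core genes of the pathway that were not called, with the group mean and SD. Tnf and Tnfrsf1a show mutant arrays above the controls without overlap, whereas Rela, Rel, Nfkb2 and Nfkbie overlap.

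The IκB proteins had a median log2 difference of 0.54, and 4 of 5 rose. The IκB-like member Nfkbil1, counted apart from these 5, had a difference of 0.12 and was not called (limma, adjusted p = 0.501). Nfkbia had 10.28, 10.05 and 9.99 in mutant villi and 8.77, 8.89 and 8.91 in control villi. More than 1 log2 unit separated the lowest mutant from the highest control, and mutant 1 was the highest array. The difference was 1.25 ± 0.10, and its adjusted p of 0.000186 in limma was the smallest among the members. Nfkbib, encoding IκBβ, a second cytoplasmic inhibitor, had 9.53, 9.37 and 9.33 in mutant villi and 8.78, 8.76 and 8.84 in control villi. All mutants were again clearly above all controls. The difference was 0.62 ± 0.08 (limma, adjusted p = 0.00186).

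Nfkbiz and Nfkbid encode nuclear IκB proteins, which act on NF-κB at its target genes rather than in the cytoplasm. Nfkbiz had 7.40, 7.21 and 7.57 in mutant villi and 6.76, 6.86 and 6.94 in control villi. Mutant 3 was the highest, and the groups were apart by 0.27. The difference was 0.54 ± 0.11 (limma, adjusted p = 0.0111). Nfkbid had 5.79, 5.53 and 5.80 in mutant villi and 5.14, 5.20 and 5.43 in control villi. It was the one called member with both group means under the median signal of 6.27, and only 0.10 separated mutant 2 from control 3. The difference was 0.45 ± 0.11 (limma, adjusted p = 0.0277), and the call was lost without control 1 (0.0786), control 2 (0.0908), mutant 1 (0.0892) or mutant 3 (0.0804), or after quantile normalization (0.0503). Nfkbie, encoding the cytoplasmic inhibitor IκBε, was not called. It read 6.15, 6.17 and 6.33 in mutant villi and 6.37, 6.40 and 6.22 in control villi. These overlapped, and the difference was -0.11 with an interval from -0.31 to 0.09 (limma, adjusted p = 0.444). Bcl3, a nuclear IκB protein whose symbol is not of this family and which is counted below among the target genes, read 9.53, 9.25 and 9.34 in mutant villi and 9.83, 9.59 and 9.56 in control villi. All mutants lay below all controls, and the difference of -0.29 was not called (adjusted p = 0.116).

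Several of these genes are textbook NF-κB targets, and their promoters hold the letters to which NF-κB binds. RefSeq promoter windows of GRCm38.p6, from 250 bases before to 50 bases after each start, were searched on both strands for the NF-κB consensus, the 10-base κB motif, counting matches that overlap each other. The lines below are shown because they belong to members that rose and to a pair of subunit genes that were not called. Each runs in the direction of its gene, and capitals mark the match.
Nfkbia, chr12:55492657-55492686, minus strand: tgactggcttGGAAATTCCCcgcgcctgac
Nfkbid, chr7:30422170-30422199, plus strand: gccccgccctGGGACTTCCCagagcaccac
Nfkbid, chr7:30422215-30422244, plus strand: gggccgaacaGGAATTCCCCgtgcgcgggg
Tnfaip3, chr10:19015411-19015432, minus strand: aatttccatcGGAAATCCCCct
Tnfaip3, chr10:19015516-19015545, minus strand: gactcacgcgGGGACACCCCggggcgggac
Nfkb2, chr19:46304688-46304717, plus strand: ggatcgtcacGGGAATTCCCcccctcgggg
Rel, chr11:23771042-23771071, minus strand: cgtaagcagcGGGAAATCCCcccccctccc
The match in Nfkbia starts 29 bases before the start of transcription, those in Nfkbid 226 and 181 bases before it, and those in Tnfaip3 12 and 125 bases before it. Those shown for Nfkb2 and Rel start 39 and 92 bases before it, and each has a further match shifted by 1 base. Nfkb2 held 3 more, starting 11 bases before the same start and 225 and 236 bases before other annotated starts. A gene that was not called thus had the most matches lying wholly before a start. Such counts are not alike between members, as Nfkb2 had 3 windows and Nfkbia 1. Windows were given for 47 of the 57 members, and 11 of them held a match in at least 1 window, or 23.4%, against 9.55% of 27025 genes in the RefSeq table. A match was present in 3 of the 9 members that rose and had a window, and in 8 of the 37 that were not called.

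**Figure D4:**
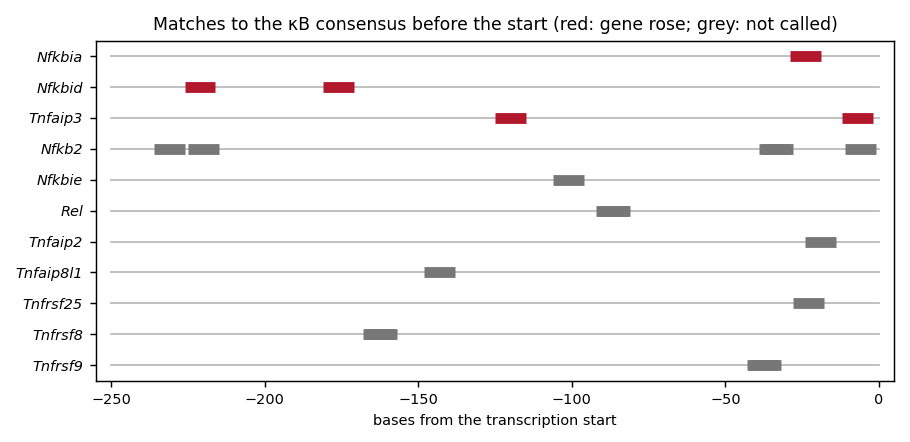
Position of each match to the κB consensus before the start of transcription (horizontal axis, bases) for the 11 members with a match. Red bars belong to members that rose (Nfkbia, Nfkbid, Tnfaip3) and grey bars to members that were not called; the matches of Nfkbia and of Nfkb2 include ones within 50 bases of the start, and those of Nfkbid lie farther away.

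Other genes of the pathway were read from lists that do not use these symbols. For scale, 9.39% of all genes with a single symbol rose and 10.1% fell. Among those with a mean at or above the median signal the shares were 15.2% and 16.7%. Of 17 measured proteins that act at the receptor complex 4 rose, or 23.5%, and 2 fell, or 11.8%, with a median difference of 0.07. Tradd, the adaptor that bridges Tnfrsf1a and Traf2, had 9.47, 9.29 and 9.33 in mutant villi and 8.70, 8.50 and 8.55 in control villi, a difference of 0.78 (limma, adjusted p = 0.000923). Fadd, the adaptor of death receptors, fell, with a difference of -0.67 (adjusted p = 0.00124), while Casp8, the caspase that Fadd recruits, rose by 0.63 (adjusted p = 0.00902). Birc3, a ubiquitin ligase bound by Traf2, rose by 0.53 (adjusted p = 0.0126). Of 14 further TNF-type ligands and receptors whose symbols differ, 0 rose and 1 fell by limma, the lymphocyte receptor Cd27 at -0.38 (adjusted p = 0.0123).

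Of 16 kinases and scaffolds upstream of NF-κB 3 rose, or 18.8%, and 0 fell by limma, with a median of 0.01. They were Ikbkg, the regulatory subunit of the IκB kinase complex, at 0.83, the IκB-kinase-related Ikbke at 0.40 and the scaffold Bcl10 at 0.34. Leaving out 1 replicate left 0 to 2 of these rises, with 0 left without control 2, where the adjusted p was 0.0582, 0.0507 and 0.0853. Of 23 NF-κB target genes outside the members 4 rose, or 17.4%, and 0 fell by limma, with a median of 0.12. The other 19 were not called. Counting all 23, the difference was above 0 for 15 and below 0 for 8, with -0.29 the lowest. Ptgs2, the inducible cyclooxygenase, had 8.49, 8.0 and 8.72 in mutant villi and 6.36, 6.94 and 6.80 in control villi, a difference of 1.70 (adjusted p = 0.00135). Ier3, an early-response survival gene, rose by 0.64 (adjusted p = 0.00843), and the chemokine gene Cxcl10 by 0.69 (0.027), a call lost without control 1 (0.0605), control 3 (0.0732), mutant 2 (0.0839) or mutant 3 (0.0514). Il1b, encoding interleukin-1β, had 7.06, 6.80 and 9.69 in mutant villi and 5.50, 5.39 and 5.31 in control villi. Mutant 3 was far above the other mutants, and the difference was 2.45 with all arrays (limma, adjusted p = 0.0397) and 1.53 without mutant 3 (0.000351). The call was lost without control 1 (0.0905), control 2 (0.0995) or control 3 (0.108), with trended robust variances (0.152) or with an offset of 32 (0.107).

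Villi hold leukocytes and stroma besides enterocytes, and in bulk RNA fewer cells of a type and less RNA per cell cannot be told apart. Markers of neutrophils were higher in mutant villi. Their summed signal on the linear scale was 826, 1240 and 2960 in mutants 1, 2 and 3, against 377 to 402 in controls. A large part of the mutant sums came from S100a8 and S100a9, the brightest of these markers in the mutants, with differences of 3.31 and 3.46. Of the 10 markers 4 rose by limma, S100a8, S100a9 and the receptors Csf3r and Cxcr2, and the other 6 were not called. Among these, Ly6g, Ngp and Ltf had differences of 1.71, 1.37 and 0.52 without overlap (adjusted p = 0.0609, 0.0544 and 0.108), and Elane, Camp and Mpo had 0.24, 0.10 and 0.07. Leaving out 1 replicate gave between 2 rises, without any 1 of the controls, and 7, without mutant 1. The markers did not all rank the mutants alike, as Ly6g read 6.70, 4.45 and 4.77 in mutants 1, 2 and 3. Among the members that rose, mutant 3 was the highest array for Tnfrsf1b, Nfkbiz, Nfkbid and Traf2, and mutant 2 for Tnfrsf23 and Tnfaip1. Mutant 1 was the highest for Nfkbia, Nfkbib, Relb, Tnfrsf10b, Tnfsf15 and Tnfaip3. Tnf and Il1b were highest in mutant 3. Without mutant 3, Nfkbia had a difference of 1.31, Tnfrsf1b 0.69, Relb 0.60 and Tnf 0.24.

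Markers of the other leukocytes gave few calls. The sum for T cells and innate lymphoid cells was 368 to 378 in mutant villi and 371 to 405 in control villi, with 0 of 8 called by limma. The sum for macrophages and dendritic cells was 2400 to 2890 in mutants and 2300 to 2770 in controls, where Itgam rose and Adgre1 fell among 11. Cd14, which neutrophils also carry, read 7.25, 7.02 and 9.41 in mutant villi and 6.03, 6.12 and 6.33 in control villi. Mutant 3 was again far above the rest, and the difference of 1.73 was not called (limma, adjusted p = 0.0698) but was 0.97 without mutant 3 and then called (0.0029). For B cells and plasma cells it was 1890 to 2060 in mutants and 1730 to 1790 in controls, with 0 of 7 called. Most of this sum was Xbp1, which secretory epithelium also expresses, and without it the sums were 216, 200 and 210 in mutants and 201, 206 and 195 in controls. The endothelial sum was 2060 to 2520 in mutants and 2280 to 2400 in controls, and Tek fell. Fibroblast and smooth muscle markers summed to 3160 to 3970 in mutants and 2420 to 3170 in controls, and 2 of 10 rose, Pdgfra and Dcn. The epithelial sum was higher in mutant villi, at 77300 to 80500 against 68800 to 69700 in controls, and 4 of 8 rose, Krt20 by 1.37 and Krt8 by 0.79 the most. The brightest of these markers, Fabp2, Alpi and Apoa1, had differences of -0.09, -0.04 and 0.06 and were not called. When 1 replicate was left out, 2 to 3 epithelial markers rose (2 without control 2 or mutant 1), the rise of Itgam was kept without mutant 1 (adjusted p = 0.0299) and lost without each of the others (0.0572 to 0.127), and that of Pdgfra was lost without mutant 2 (0.0637). The part of these shifts in the changes of the TNF and NF-κB genes was not tested.

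**Figure D5:**
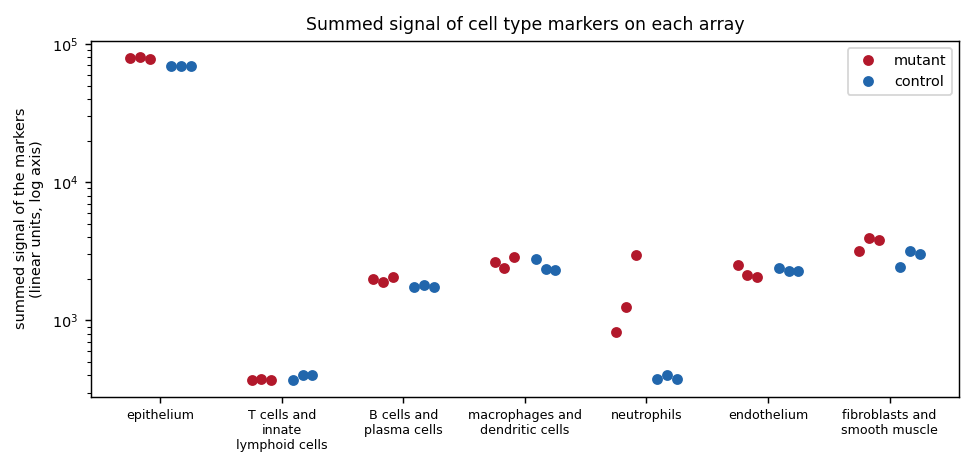
Summed linear signal (log axis) of the markers of 7 cell types on each mutant (left, red) and control (right, blue) array. The neutrophil sums stand apart, with 826 to 2960 in mutants and 377 to 402 in controls, and S100a8 and S100a9 make up a large part of them in mutants. The epithelial sums are also higher in mutants, with Krt20 and Krt8 rising the most.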

How the data were processed

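RNA from villi of 3 mutant and 3 control replicates was hybridised to 1 Affymetrix whole-transcript array each. The authors deposited a log2 signal for each probe set on each array. Which background correction, summarisation, normalization and software they used was not given in the sources used here. Any compression of low signals by those steps carries over. Array medians lay between 6.24 and 6.3. Signals of different probe sets are not comparable as amounts of RNA, and precision is limited by the number of arrays.

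The platform annotation gave 1 gene symbol to 21789 of 30177 probe sets, several to 1621 and listed 6767 not at all. Symbols of 21698 were updated through Entrez IDs in a RefSeq table. The 2 groups were fitted in limma 3.58.1 under R 4.3.3 (lmFit and eBayes, 3.92 prior degrees of freedom), and p-values were adjusted by Benjamini-Hochberg across every probe set. The script was tested on simulated data. The study's legend counts the replicates as littermates. If they were parts of 1 sample, p-values would measure only technical spread. If each pooled several pups, p-values would measure the spread between pools and not between pups. Members and gene lists (138 genes in 11 lists, 131 measured) were chosen with earlier results of these data known. Named genes are all called members, the core pathway genes, and up to 4 called genes with the largest change in each pathway list; Tnfsf13b, Bcl3 and comparisons of neighbouring genes were singled out after their values were seen. Promoter sequences are from RefSeq, GRCm38.p6. Alternatives were other variance estimates, weights, scalings, filters, an offset of 32 on the linear scale, a replicate block and leaving out each replicate.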

Additional observations from a re-analysis of the deposited data

How the results depend on the processing

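All called members kept their direction under every alternative run. Leaving out 1 replicate gave 8 to 13 members that rose and 0 to 2 that fell, the lowest count of rises coming without control 2. Nfkbia, Tnfrsf10b, Tnfrsf1b, Nfkbib, Relb, Nfkbiz, Traf2 and Tnfrsf23 rose in all 6 of these fits. A fold change of at least 2 left 2 rises and 0 falls. Rises numbered 18 with array weights, 15 without dim probe sets or over single-symbol probe sets, 14 with trended robust variances or with the offset (10 of them among the original 12), and 10 after quantile normalization or median centring. With control 1 alone against the mutants, a setting added after seeing the data, 3 rose (Nfkbia, Tnfrsf10b, Tnfrsf1b) and 0 fell, the uncalled differences of Rela and Tnfsf13b turning to -0.057 and 0.363; this fit has fewer samples. Centring on the median moved the median of all probe sets by under 0.1. The deviations of mutant and control samples with the same replicate number correlated at 0.174, 0.039 and 0.119. Other combinations gave -0.162 to 0.0855, and for each mutant the control of the same number had the highest value. The labels name no pairs and the values are small, so the main fit used no pairing, which these values do not exclude. With the replicate block 15 members rose and 1 fell, Tnf among the rises (adjusted p = 0.0374). Dim signals limit what can be detected, as 23 members lay under the median.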
